A study of Homo sapiens with 4 samples.

Results

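The genes described here are 10 members of the ETS family of transcription factors in K562 cells with and without the fusion gene RUNX1::ERG: ERG, FLI1, ETS1, ETS2, ETV6, ELF1, ELK1, GABPA, SPI1 and SPIB. They were chosen by name, and all 10 were found among the 25702 genes counted. K562 is an established line from human chronic myeloid leukemia. The 2 groups were K562 cells transfected with the LeGO-iG2 plasmid carrying RUNX1::ERG, and K562 cells transfected with empty LeGO-iG2 (empty vector, EV), each with 2 biological replicates, as the study describes them, and no further treatment. The cells were nucleofected with the plasmid, which also encodes green fluorescent protein. The sources used here do not state that transfected cells were sorted before whole transcriptome sequencing (WTS). The study reports that its nucleofection protocol consistently transfected most K562 cells, but gives no value for these libraries. In bulk RNA a change in fewer cells cannot be told apart from a smaller change in all of them.

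ETS factors share a winged helix DNA-binding domain, the ETS domain, which reads a GGAA core in DNA. In blood, SPI1 (PU.1) directs myeloid and B-lymphoid development, FLI1 and ERG act in megakaryocytes, stem cells and endothelium, and ETV6 is a repressor needed for blood formation and platelet production. ELK1 and GABPA are broadly expressed. ELK1 works with serum response factor, and GABPA is the DNA-binding subunit of GABP. RUNX1::ERG joins the Runt domain of RUNX1 to the ETS domain of ERG.

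Depth and identity of the libraries were checked first. The counts summed to between 59695387 and 82352144 per library, and the replicates of each group differed by more than sampling noise. Between 66.7% and 68.9% of the counts from 1 to 10 were even, as happens if the 2 mates of a pair each add 1, and halving all counts left the same number of ETS genes called. Fetal and embryonic globin genes, GATA1 and TFRC, markers of this line, were abundant in all 4 libraries. Their summed level was 10900 and 11400 normalized CPM (counts scaled to library size with TMM factors) with EV and 12300 to 13300 with RUNX1::ERG. None of the 7 markers passed by the main edgeR test or DESeq2, while 3 had an unadjusted p under 0.05. Without a filter on low counts, edgeR called TFRC lower (adjusted p = 0.005). Markers of B lymphocytes, where SPIB is usually found, summed to between 1.17 and 2.09 normalized CPM, with no count of MS4A1 in any library. Those of T lymphocytes, which express ETS1, summed to between 25.3 and 37.5, most of it CD3D, and CD2 had at most 4 counts. DESeq2 called CD3D lower and CD3G higher (adjusted p = 0.029 and 0.018), while the main edgeR test called neither (adjusted p = 0.09 and 0.064).

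The ETS domains of the 10 factors were aligned through the coding sequence of 1 transcript per gene, because the domain is what ties the family to the fusion. A block of 78 residues aligned in all 10. It lies between residues 311 and 390 of ERG, a stretch that also holds residues without a partner in every factor, and 16 of the 78 residues were identical in every factor. FLI1 was closest to ERG, with 97.4% of the block identical, followed by ETS2 at 73.1%, ETS1 at 71.8%, GABPA at 64.1% and ELK1 at 62.8%. ELF1 (48.7%), ETV6 (44.9%), SPI1 and SPIB (39.7% each) were the most distant. The coding sequence of the 12 codons with the most shared residues, 5 of 12, is shown for each gene, 5′ to 3′ on the coding strand, to let the relatives be compared directly. Capitals mark the 13 of 36 bases that are the same in all 10 genes.
ERG: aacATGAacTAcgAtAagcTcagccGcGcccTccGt
FLI1: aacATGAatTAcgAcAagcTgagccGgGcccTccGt
ETS1: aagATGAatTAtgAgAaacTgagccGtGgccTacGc
ETS2: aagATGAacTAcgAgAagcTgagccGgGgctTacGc
GABPA: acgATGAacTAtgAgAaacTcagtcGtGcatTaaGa
ELK1: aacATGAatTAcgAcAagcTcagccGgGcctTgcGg
ELF1: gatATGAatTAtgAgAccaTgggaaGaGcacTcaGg
ETV6: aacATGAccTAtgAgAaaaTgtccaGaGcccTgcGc
SPI1: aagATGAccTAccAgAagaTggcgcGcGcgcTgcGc
SPIB: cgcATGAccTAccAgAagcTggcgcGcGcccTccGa
The ERG sequence lies at chr21:39755655-39755690 (GRCh37, minus strand), in exon 10, the last of its transcript, and the ETV6 sequence at chr12:12038869-12038904 (plus strand), in exon 7 of 8. The SPI1 sequence lies at chr11:47376892-47376927 (minus strand), in exon 5 of 5. Over these bases ELK1 differed from ERG at 6 positions, FLI1 at 4, ETV6 and SPI1 at 12 each and ELF1 at 16. The windows of ELF1 and GABPA are split between 2 exons.

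ERG had almost no reads in K562 cells with EV and many in the cells with RUNX1::ERG, where it ranked 63 among all genes by read count in replicate 1 and 385 in replicate 2. ERG (NCBI gene 2078, chr21:39751949-40033704 of GRCh37, minus strand) had 4 counts in each EV library, against 80443 in RUNX1::ERG replicate 1 and 27218 in replicate 2. In normalized CPM it was at 0.0664 and 0.0567 with EV, and at 954 and 379 with RUNX1::ERG. The groups were far apart, and the 2 RUNX1::ERG libraries also differed from each other by 2.52 times. On the log2 scale it was higher by 13.37, with a standard error of 0.60 and an adjusted p of 1.7e-06 (quasi-likelihood test of edgeR). A value this large rests on 4 counts per EV library, and with each library left out it ran from 12.55 to 13.87. The level of ERG thus follows the labels of all 4 libraries.

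Reads of the plasmid and of the chromosomal gene are not separated in the ERG counts. The study's reverse transcription PCR primers for the fusion mark a stretch of each gene that the fusion holds. The forward primer lies in RUNX1 and the reverse primer in ERG, and both are given 5′ to 3′.
RUNX1-F: ggctggcaatgatgaaaact
ERG-R: catgtacgggaggtctgagg
RUNX1-F matches chr21:36252944-36252963 (GRCh37), in exon 5 of 9 of the RUNX1 transcript used here, at codons 133 to 140 of 480. ERG-R matches chr21:39755511-39755530, in exon 10 of ERG at codons 412 to 418 of 479, past the end of the shared ETS block at codon 390. RUNX1 itself stood at 78.6 and 49 normalized CPM with EV and at 786 and 400 with RUNX1::ERG. The ERG level was 1.32 times the rise of RUNX1 over the EV mean in RUNX1::ERG replicate 1 and 1.13 times in replicate 2. These are reads of stretches of different length, not levels per length.

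With the plasmid, ERG took a large part of all reads that fell on the 28 ETS genes of the human genome. Its share was 0.00857% and 0.00792% of those reads in the EV libraries, 55.4% in RUNX1::ERG replicate 1 and 34.4% in replicate 2. These are shares of reads, not of transcripts, since genes differ in length. The other 27 ETS genes together held 775 and 716 normalized CPM with EV and 767 and 721 with RUNX1::ERG, so the ranges of the groups overlapped.

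ETV6 was the only other gene of the 10 that passed the test, and it rose 2.42-fold. ETV6 (NCBI gene 2120, chr12:11802608-12048311 of GRCh37, plus strand) encodes a repressor whose gene is itself a partner in many leukemia fusions. It had 464 and 522 counts in EV replicates 1 and 2, and 1723 and 1157 in RUNX1::ERG replicates 1 and 2. In normalized CPM these were 7.7 and 7.4 against 20.4 and 16.1. The EV libraries were nearly equal, and both RUNX1::ERG libraries were higher, replicate 1 by 1.27 times over replicate 2. The difference was 1.27 on the log2 scale, with a standard error of 0.22, a 95% interval from 0.79 to 1.76 and an adjusted p of 0.0088 (edgeR). The DESeq2 Wald test gave 1.26 with an adjusted p of 3.4e-06. Without RUNX1::ERG replicate 1, the library with more ERG, the log2 fold change was 1.09 and the call was lost (adjusted p = 0.083 from the same edgeR test), while it held without each of the other libraries.

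The promoter of ETV6 is shown because this was the chromosomal ETS gene that passed the test, and it was searched for the ETS and Runt motifs. The window runs from 250 bases before to 50 after the transcription start, at chr12:11649424-11649723 of GRCh38.p14 (RefSeq, plus strand). Matches to the ETS core GGAA on either strand (TTCC on the printed strand) are in capitals.
ETV6 promoter: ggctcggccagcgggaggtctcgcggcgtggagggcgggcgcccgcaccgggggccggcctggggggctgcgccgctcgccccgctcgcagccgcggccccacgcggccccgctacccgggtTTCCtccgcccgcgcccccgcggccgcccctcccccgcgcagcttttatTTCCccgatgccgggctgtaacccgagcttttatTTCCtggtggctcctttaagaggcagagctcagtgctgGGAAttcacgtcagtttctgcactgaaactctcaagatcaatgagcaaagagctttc
It holds 4 matches to GGAA, and 46.0% of 35116 RefSeq promoter windows of 300 bases hold as many. The median over all windows was 3, and 95.5% hold at least 1. The Runt motif TGTGGT, searched on both strands, has no match here and is held by 13.1% of windows. Among the other 6 members with a window in this table, GGAA matches ran from 0 to 7, the most in one of 2 ETS2 windows, and 1 ETS2 window held TGTGGT. These are matches of letters and say nothing of binding.

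SPI1 was lower in both RUNX1::ERG libraries, but the difference did not pass the main test. SPI1 (NCBI gene 6688, chr11:47376411-47400098 of GRCh37, minus strand) had 849 and 552 counts with EV and 613 and 256 with RUNX1::ERG. In normalized CPM the 4 libraries were at 14.1, 7.83, 7.27 and 3.56. The groups did not overlap, yet the lower EV library and the higher RUNX1::ERG library were nearly level. Both RUNX1::ERG libraries lay below both EV libraries for 22.1% of all genes tested. The difference was -1.01 on the log2 scale, with a standard error of 0.37 and an adjusted p of 0.17 (edgeR). It passed 0.05 without the filter on low counts (adjusted p = 0.0036), with replicate number as a block (adjusted p = 0.0076) and narrowly with the DESeq2 Wald test (adjusted p = 0.049). Its size depended on which library was left out. It was -0.53 without EV replicate 1 and -0.60 without RUNX1::ERG replicate 2 (adjusted p = 0.34 and 0.47 by edgeR). It was -1.38 and called without EV replicate 2 (adjusted p = 5.6e-05), and -1.62 without RUNX1::ERG replicate 1 (adjusted p = 0.05, not called).

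Classical myeloid targets of SPI1 gave calls in the higher direction only. Of 12 such genes, 9 passed the filter on low counts, 4 of them were higher by the test and none lower. Among all genes tested, 3.64% were called higher and 1.15% lower. The median log2 fold change of the 9 was 0.94, beside 0 over all genes tested, though a gene near 0 can pass the filter because it rose. CD14, a co-receptor for lipopolysaccharide on monocytes, stood at 0.183 and 0.425 normalized CPM with EV and 3.85 and 1.99 with RUNX1::ERG, which is 3.24 on the log2 scale (standard error 0.52, adjusted p = 0.0058 by edgeR). CSF3R, the receptor for granulocyte colony-stimulating factor, was at 0.315 and 0.284 against 2.23 and 0.765 (log2 fold change 2.32, adjusted p = 0.046 from edgeR's test). LYZ, the secreted lysozyme of myeloid cells, was at 6.97 and 9.9 against 18.1 and 18.7 (log2 fold change 1.12, adjusted p = 0.021). CD68, a lysosomal protein of macrophages, was at 54.7 and 60.2 against 102 and 89.1 (log2 fold change 0.73, adjusted p = 0.029). For 8 of the 9 both RUNX1::ERG libraries lay above both EV libraries, beside 25.1% of all genes tested. The 8 include the 4 called genes, which the test picked from these same libraries. BTK and CYBB were also higher in both without passing (adjusted p = 0.13 and 0.24 by edgeR). ITGAM, an integrin chain of myeloid cells, had a log2 fold change of -0.99 on between 2 and 19 counts in a library and did not pass (adjusted p = 0.64 by edgeR), and CSF1R, CSF2RA and ITGB2, which failed the filter, had at most 18. Fewer of all genes tested were called without RUNX1::ERG replicate 1 than with all 4 libraries. With each library left out in turn, the log2 fold change ran from 2.69 to 3.99 for CD14 and 1.35 to 2.88 for CSF3R. It ran from 0.89 to 1.4 for LYZ and 0.63 to 0.81 for CD68. CD14 was called in each case. Without RUNX1::ERG replicate 1, CSF3R was at a log2 fold change of 1.35, and the calls of CSF3R, LYZ and CD68 were lost (adjusted p = 0.57, 0.071 and 0.17 by edgeR). Without EV replicate 1, that of CD68 was lost (adjusted p = 0.061). The monocyte marker list shares CD14, LYZ, ITGAM and CSF1R with these targets. Its sum was 7.7 and 10.7 normalized CPM with EV and 20.9 to 22.7 with RUNX1::ERG, and LYZ made up most of it in every library. S100A9, abundant in monocytes, was at most 0.439 in any library, and the part of other cells in these values was not tested.

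**Figure D1:**
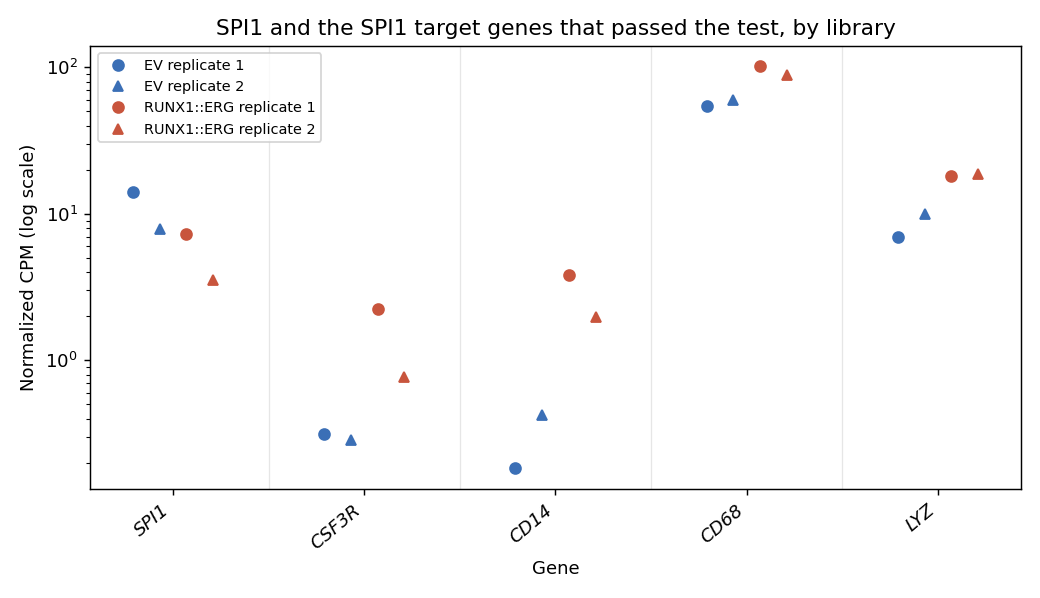
Normalized CPM (log axis) of SPI1 and of the 4 SPI1 target genes that passed the test, in each of the 4 libraries, with EV in blue and RUNX1::ERG in red, circles for replicate 1 and triangles for replicate 2. SPI1 is lower in both RUNX1::ERG libraries while CD14, CSF3R, LYZ and CD68 are higher in both.

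FLI1, the nearest relative of ERG, was not expressed at a level that could be compared. FLI1 (NCBI gene 2313, chr11:128556430-128683162, plus strand) had 2 and 4 counts with EV and 8 and 4 with RUNX1::ERG, and it failed the filter on low counts. FLI1 is therefore given by its counts alone. Of 8 classical targets of FLI1 and ERG in megakaryocytes, 6 were tested and 3 were called higher, beside 3.64% of all genes tested. ITGA2B, the platelet integrin chain, was at 12 and 8.92 normalized CPM with EV and 229 and 161 with RUNX1::ERG. TUBB1, the platelet tubulin, was at 57.8 and 71 against 132 and 143, a log2 fold change of 1.09 (adjusted p = 0.0044 from edgeR's test). PF4, a platelet chemokine, went from 0 and 2 counts to 874 and 555, and so passed the filter only through the RUNX1::ERG libraries. NFE2, GP1BA and GP6 did not pass (log2 fold changes -0.10, 0.80 and 0.53), and GP9 had at most 2 counts. Of the 5 megakaryocyte-platelet markers, which share ITGA2B, PF4 and GP9 with these targets, 4 were called higher, beside the same 3.64%, and PF4 and PPBP were tested only because they were high with RUNX1::ERG. Their sum was 13.4 to 15.5 normalized CPM with EV and 285 to 357 with RUNX1::ERG. Of 4 endothelial markers 2 were tested, and PECAM1 alone was called higher, beside the same 3.64%. CDH5 had 0 and 4 counts with EV and 27 and 12 with RUNX1::ERG, and passed the filter only through the latter. Its log2 fold change was 2.96, like that of PECAM1, but it was not called (adjusted p = 0.15 by edgeR). KDR and TEK had at most 2 counts each. The sums of the 4 were 3.03 to 3.22 against 23.7 to 25 normalized CPM, nearly all of it PECAM1. That gene alone was at 3.19 and 2.98 with EV and at 23.3 and 24.8 with RUNX1::ERG. What part other cells had in these sums was not tested.

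ETS1 and ETS2 gave no call. ETS1, a factor of lymphoid cells whose gene lies 99.0 kb from FLI1 on chromosome 11, had 232 and 223 counts with EV and 243 and 241 with RUNX1::ERG. These are 3.85, 3.16, 2.88 and 3.35 normalized CPM, so the groups overlapped. Its log2 fold change was -0.17 with a 95% interval from -0.82 to 0.48. ETS2, a broadly expressed target of ERK signalling whose gene lies 143.4 kb from ERG on chromosome 21, was at 40.5 and 53.2 normalized CPM with EV and at 37.3 and 37.5 with RUNX1::ERG. The RUNX1::ERG libraries were nearly equal and below both EV libraries, which differed from each other by more than the gap between the groups. Its log2 fold change was -0.33 (95% interval -0.74 to 0.08, adjusted p = 0.41 from edgeR's test), and -0.12 without EV replicate 2. ERG, RUNX1, ETS2 and GABPA all lie on chromosome 21, and of these ETS2 and GABPA were not called.

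ELF1, ELK1 and GABPA, the 3 most abundant of the 10 in EV cells, gave no call. ELF1, a factor of blood cells, was at 84.8 and 82.5 normalized CPM with EV and at 78 and 99 with RUNX1::ERG, with a log2 fold change of 0.08 (95% interval -0.29 to 0.45). ELK1, a ternary complex factor that recruits serum response factor (SRF), was at 121 and 104 against 105 and 95.2, with -0.17 (95% interval -0.53 to 0.18). GABPA was at 57.3 and 63.4 against 49.9 and 69.1, with -0.02 (95% interval -0.44 to 0.40). In each the groups overlapped, and the intervals leave room for changes of up to 1.37-fold upwards or to 0.693 of the EV level. Of the exon bases of GABPA, 12.1% are shared with ATP5PF on the other strand, and the strand setting of the counting is not given in the sources used here.

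The lists of partner genes, of ternary complex factor targets and of GABP targets gave 1 call in all. The partner genes were not limited to those of ELF1, ELK1 and GABPA, and no list of ELF1 targets was used. Of 12 partner genes, 10 were tested and none passed edgeR's adjusted threshold, while MRTFA (log2 fold change 0.51) and EP300 (0.42) had an unadjusted p under 0.05, and DESeq2 called none. GABPB1, the partner subunit of GABPA, was at 28.3 and 32.5 normalized CPM with EV and 27.7 and 34 with RUNX1::ERG. Of 11 targets of ternary complex factors, 10 were tested, none passed the adjusted threshold by edgeR or DESeq2, and none had an unadjusted p under 0.05. EGR1, an immediate early gene, was at 22.4 and 52.5 normalized CPM with EV and 36.3 and 43.4 with RUNX1::ERG, so its EV libraries enclosed both others. Without EV replicate 2 EGR1 was called higher (log2 fold change 0.83), and without EV replicate 1 the partner JUN was (0.80). Of 10 targets of GABP, all tested, 1 was called lower, beside 1.15% of all genes tested. TFB1M, a mitochondrial ribosomal RNA methyltransferase, went from 26.4 and 24.1 to 12.1 and 11.4 normalized CPM, or -1.10 on the log2 scale (standard error 0.19, adjusted p = 0.0093 by edgeR), and it was called without each library in turn. TFAM and TFB2M, which act with it in mitochondrial gene expression, had log2 fold changes of -0.42 and -0.16 and did not pass.

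SPIB, a factor of B lymphocytes and plasmacytoid dendritic cells, was low and gave no call. It had 124 and 226 counts with EV and 275 and 146 with RUNX1::ERG, or 2.06, 3.2, 3.26 and 2.03 normalized CPM. One library of each group was near 2 and the other near 3.2, so the groups covered the same range. The log2 fold change was 0.01, with a 95% interval from -0.80 to 0.81, or from 0.574 to 1.75 times the EV level. Another annotated gene on the same strand shares 19.6% of the exon bases of SPIB.

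**Figure D2:**
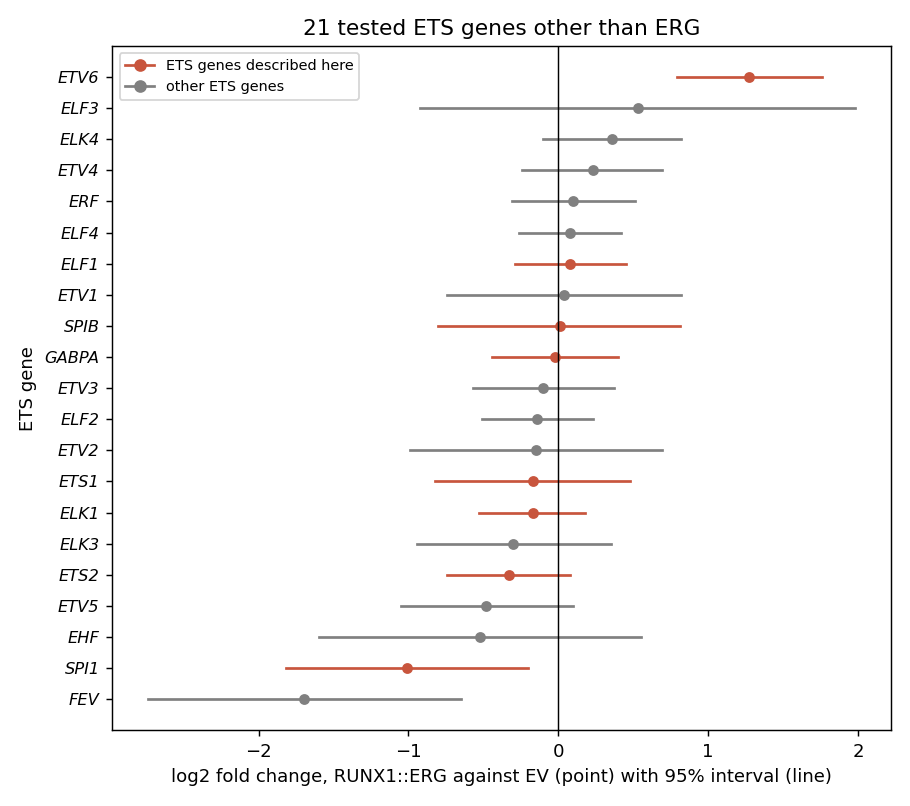
Log2 fold change of RUNX1::ERG against EV (x axis, points) with its unadjusted 95% interval (lines) for the 21 ETS genes other than ERG that passed the filter, the genes described here in red and other ETS genes in grey. ETV6 stands highest at 1.27, and the intervals of SPI1 and FEV lie below 0 although neither passed the adjusted threshold.

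Over the whole family, 22 of the 28 ETS genes passed the filter and 2, ERG and ETV6, were called, both higher. Of the 10 members 9 were tested, and 2 of 9 were called, beside 4.79% of all 15394 genes tested. ERG, 1 of the 2, was carried by the plasmid. With 4 counts in each EV library, it passed the filter only through the RUNX1::ERG libraries. The call of ERG came with the transfection, here and in the fits that follow, and cannot be set beside such a share. Without the filter 2 of the members were called higher and 1, SPI1, lower, beside 4.74% and 2.65% of all genes. DESeq2 gave the same 2 and 1 beside 4.85% and 2.42%, and the fit with a replicate block did too beside 7.03% and 4.23%. None of the 13 tested ETS genes outside the 10 passed by edgeR or by DESeq2, and 1 had an unadjusted p under 0.05. That gene was FEV, a neuronal relative of ERG, with 57 and 95 counts with EV and 28 and 27 with RUNX1::ERG (log2 fold change -1.70, adjusted p = 0.071 from edgeR's test, and 0.010 without the filter). The median log2 fold change was -0.02 over the 9 and -0.10 over the 13. ETV7 had no count in any library, and ETV3L, ELF5, SPDEF and SPIC had at most 7.

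The PEA3 group of ETS genes, ETV1, ETV4 and ETV5, which respond to receptor tyrosine kinase signalling, differed more between the EV libraries than between the groups. They are named here after their values were seen. ETV1 was at 43.2 and 15.9 normalized CPM in EV replicates 1 and 2, and at 29.5 and 31.1 with RUNX1::ERG. ETV5 was at 45.2 and 24.6 against 26.7 and 23.6, and ETV4 at 75.7 and 54.7 against 88.7 and 64.1. EV replicate 1 was above EV replicate 2 in all 3, as it was for SPI1, by 2.72, 1.84, 1.39 and 1.80 times for ETV1, ETV5, ETV4 and SPI1. Without EV replicate 1, ETV1 was called higher at a log2 fold change of 0.93, and without EV replicate 2, ETV5 was called lower at -0.85. The number of ETS genes called varied with the library left out, as did the number called among all genes tested.

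**Figure D3:**
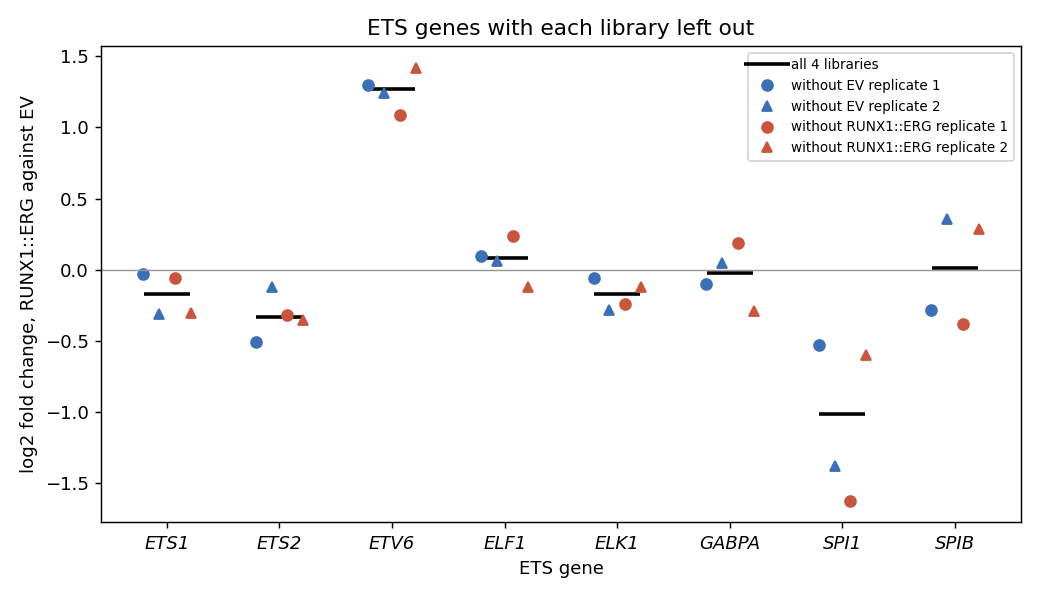
Log2 fold change of RUNX1::ERG against EV (y axis) for the 8 tested ETS genes other than ERG, with all 4 libraries (black bars) and with each library left out (points named in the legend). ETV6 stays between 1.09 and 1.42, SPI1 runs from -1.62 to -0.53, and ELF1, GABPA and SPIB fall on both sides of 0.

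Levels of different genes were compared per length, as counts per kilobase of merged exons, scaled like CPM over all genes with a length. On this scale ELK1 was the most abundant of the 10 in EV cells, at 150 and 125, and then ELF1 at 80.4 and 75.7. GABPA (42 and 45) and ETS2 (34.3 and 43.6) overlapped each other, and SPI1 was at 29.1 and 15.6. ETV6 followed at 4.49 and 4.17, and SPIB (2.02 and 3.05) and ETS1 (2.27 and 1.80) overlapped. FLI1 and ERG lay below 0.04. With RUNX1::ERG the first places were held by the same genes, with ELK1 at 131 and 123, ELF1 at 74.6 and 97.6, GABPA at 36.9 and 52.7 and ETS2 at 31.8 and 33. ETV6, at 12 and 9.75, then lay within the range of SPI1, at 15.1 and 7.64, whereas with EV SPI1 had been above it in both libraries. ERG was left out of this order with RUNX1::ERG, since the plasmid covers only part of its length.

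The genes whose pattern over the 4 libraries came closest to a member were sought among 9136 genes with a mean of at least 10 normalized CPM, by Euclidean distance between centred log2 profiles. For ERG they were PAK6, ITGB3 and ITGA2B at distances of 4.79, 4.91 and 5.10, which are large because no other gene rose as far. For ETS2 they were MALSU1, CD320 and THAP4, all at distances under 0.04, which share its single high value in EV replicate 2. For ETV6, added after its values were seen, the closest was DNAJB2 at a distance of 0.0782. It was at 5.73 and 5.83 normalized CPM with EV and 16.7 and 13.1 with RUNX1::ERG. With 4 libraries many genes share a profile, so this is a description only.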

How the data were processed

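The authors deposited 1 file per library with raw counts of reads per gene, listed by NCBI gene number and not normalized. Libraries of poly(A)-enriched RNA were sequenced as paired-end reads, hg19 was the reference, and the submitters' processing notes name HISAT2 2.2.1 and featureCounts 2.0.1. The annotation and strand setting are not given in the sources used here. Of the gene numbers, 92.2% were joined to symbols with a RefSeq table of GRCh38.p14. Positions and exon lengths are those of GENCODE v44 on GRCh37, the same build as hg19.

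Groups followed the sample titles. Counts were analysed in R 4.3.3 with edgeR 4.0.16 (TMM scaling, filterByExpr, quasi-likelihood test without a replicate block, Benjamini-Hochberg adjustment over 15394 genes, threshold 0.05). The standard error is the log2 fold change divided by the square root of F, and unadjusted 95% intervals use 10.7 degrees of freedom. DESeq2 1.42.0 was an alternative. The main edgeR fit was tested on simulated data, and the alternatives were not. The simulation gave every gene the same dispersion (spread between replicates), set below the common dispersion of these data. Members and gene lists were chosen with earlier results of these data known. All 10 members are named, other ETS genes if called, and of partner and target lists the 4 with the largest absolute log2 change among those called. Further genes of these lists were named after their values were seen. Some genes are not reported here. A count of 0 allows up to 3 counts, or 0.0364 to 0.0503 CPM, for counting error only, and this is too low if mates were counted separately. An exact permutation test of 2 against 2 libraries cannot go below p = 0.333. ETS blocks come from local alignment (BLOSUM62) of translated GENCODE transcripts.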

Additional observations from a re-analysis of the deposited data

How the results depend on the processing

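The call of ERG was kept under every alternative that tested it, and that of ETV6 under all but the fit without RUNX1::ERG replicate 1 (range with each library left out 1.09 to 1.42). Of 89 values of the members under the alternatives, 76 kept direction and side of the threshold, and of 129 values of other ETS genes 117 did. The number of genes called was 737, and 1500 without the filter (962 higher), 1194 with DESeq2 (796 higher) and 286 to 1336 with each library left out. ETS genes called numbered 2, and 4 without the filter, 1 with RUNX1 and ERG left out of scaling, where ERG is not tested by construction, and 1 to 4 with each library left out. SPI1 was called without the filter (-1.02) and with DESeq2 (-1.02), and ran from -1.62 to -0.53 with each library left out. SPIB was -0.01 with DESeq2 size factors, 0 without the filter and -0.01 with the DESeq2 test. With each library left out, signs turned for SPIB (-0.38 to 0.36), ELF1 (-0.12 to 0.24), GABPA (-0.29 to 0.19), ETV1 (-0.51 to 0.93), ETV4 (-0.02 to 0.48), ETV5 (-0.85 to 0.03), ELF3 (-0.38 to 1.05) and ERF (-0.18 to 0.32), and ETV2 ran from -0.34 to 0. These fits assume that the lone library of a group varies like the others. Apart from the untested ERG, the cause was not tested. Halving the counts called 747 genes and the same number of ETS genes, 2.

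With replicate number as a block, 1733 genes were called (1082 higher) and 4 ETS genes, with SPI1 (-1.04, adjusted p = 0.0076 from edgeR) and FEV (-1.67, adjusted p = 0.034) added to ERG and ETV6. Of other genes given as not passing, the block also called MRTFA, TFAM, BTK and GP6 (adjusted p = 0.046, 0.043, 0.04 and 0.043 by edgeR). It called CD3D and CD3G too (adjusted p = 0.028 and 0.02) and, of the K562 markers, HBE1, HBG2 and TFRC (adjusted p = 0.015, 0.028 and 0.014). A check of whether replicate numbers pair the libraries gave r = 0.37 between their deviations, yet no label ties a number to a batch or day, so they are taken to share a number only. FLI1, with at most 8 counts in a library, is beyond what this depth can compare.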
